A study of Mus musculus with 6 samples.

Results

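The genes described here encode the respiratory chain, the protein machinery of the inner mitochondrial membrane that makes ATP from NADH and succinate. They were taken from the deposited count table of 55487 genes as the protein-coding rows whose symbols begin with the family names of complexes I to V (Nduf, Sdh, Uqcr, Cox4 to Cox8, Atp5) or with the mitochondrial names (mt-Nd, mt-Co, mt-Cytb, mt-Atp). Of 109 such rows, 103 had at least 10 counts in at least 3 libraries, and all 103 entered the test among 17315 genes. They comprised 82 nuclear subunits, 12 genes of the mitochondrial genome and 9 rows that are not subunits, namely 8 assembly factors of complex I and Cox5b-ps. The 6 rows below the limit were mt-Atp8, the tissue-restricted forms Cox6a2, Cox7b2, Cox8b and Cox8c, and a second Atp5o row for a read-through gene that had no counts. Symbols such as Ndufb1-ps and Cox5b-ps are given as in the deposited table, which lists them as protein-coding.

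The series measured poly(A)-selected RNA from 3 Ts1Cje and 3 wild-type samples of cells derived from mouse embryonic stem cells (ESCs). Ts1Cje mice model Down syndrome in that a distal piece of chromosome 16 is present in an extra copy, joined to chromosome 12. The Ts1Cje cells came from ESCs established from Ts1Cje mice, and the wild-type cells carry no such copy. Both genotypes had been induced for 4 days with FGF2, BMP-4, activin A and VEGF to form primitive macrophage progenitors, the earliest blood cells that give rise to macrophages and microglia, and the study asks why microglia are fewer in Ts1Cje embryos. The samples are labelled as lots, with no word on the number of ESC lines behind them or on the mice, so p-values reflect only how far lots differ, which may be technical. Totals ran from 16577065 to 19010856 counts per library, and the leading principal component, with 79.1% of the variance, separated the genotypes, with wild-type replicate 1 nearer to the Ts1Cje libraries than the other wild-type libraries were.

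Complex I oxidises NADH and complex II oxidises succinate, and both pass electrons to ubiquinone. Complex III hands them to cytochrome c, complex IV to oxygen, and complex V, the ATP synthase, uses the proton gradient that complexes I, III and IV build up. Most subunits are encoded in the nucleus and imported, while a small set, including the proton-pumping core of complex I, cytochrome b and the catalytic subunits of complex IV, is encoded by mitochondrial DNA. The nuclear genes have promoters known for sites of NRF1, of ETS family factors such as GABPA, and of YY1.

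Promoters are shown for Atp5o, the triplicated member, and for Cox6a1 and Uqcr11, 2 of the members that rose. Those of Cox6a1 and Uqcr11 are examples with motif matches and are not typical of the members that rose. Each is the RefSeq window of GRCm38.p6 from 250 bases before to 50 bases after the gene's start, on the strand of the gene, with the motif matches in capitals. The letters searched on both strands were GCGCATGC for NRF1, CCGGAAG for the ETS family, AAGATGGC for YY1 and GGGCGGG for SP factors. The Cox6a1 window (chr5:115348909-115349208, minus strand) holds a pair of overlapping NRF1 matches on opposite strands, an SP match and an ETS match, the Uqcr11 window (chr10:80406772-80407071, minus strand) an ETS and an NRF1 match, and the Atp5o window (chr16:91931581-91931880, minus strand) none of the 4 motifs.
Cox6a1 promoter: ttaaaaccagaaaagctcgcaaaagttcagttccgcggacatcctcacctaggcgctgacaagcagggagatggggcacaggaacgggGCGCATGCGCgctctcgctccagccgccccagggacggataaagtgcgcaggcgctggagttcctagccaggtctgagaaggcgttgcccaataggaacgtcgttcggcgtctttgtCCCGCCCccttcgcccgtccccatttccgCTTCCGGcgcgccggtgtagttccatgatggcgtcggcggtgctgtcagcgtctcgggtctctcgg
Uqcr11 promoter: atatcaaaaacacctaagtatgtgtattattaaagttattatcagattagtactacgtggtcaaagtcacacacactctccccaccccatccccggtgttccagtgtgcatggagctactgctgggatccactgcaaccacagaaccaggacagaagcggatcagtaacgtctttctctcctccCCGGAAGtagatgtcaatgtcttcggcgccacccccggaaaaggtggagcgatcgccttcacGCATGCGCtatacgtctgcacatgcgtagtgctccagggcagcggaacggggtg
Atp5o promoter: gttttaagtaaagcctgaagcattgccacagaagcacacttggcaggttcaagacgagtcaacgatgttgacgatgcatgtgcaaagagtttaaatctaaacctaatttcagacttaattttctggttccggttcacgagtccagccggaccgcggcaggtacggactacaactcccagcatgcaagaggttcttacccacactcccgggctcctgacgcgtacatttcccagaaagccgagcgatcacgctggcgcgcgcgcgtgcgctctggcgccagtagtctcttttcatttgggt

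Among the 68 of 82 nuclear subunits with a window, 10 (14.7%) held the NRF1 letters, against 5.33% of the windows of 10948 tested protein-coding genes and 2.71% of all 32851 windows. The ETS letters were in 16 (23.5%) of the subunit windows, against 17.6% of those of tested coding genes and 8.86% of all. The YY1 letters were in 9 (13.2%), against 4.48% and 2.75%, and the SP letters were in 23 (33.8%), against 48.4% and 25.6%. The median log2 fold change of the 10 subunits with the NRF1 letters was 0.29, and that of the 58 without was 0.17. For the ETS letters the medians were 0.29 in 16 subunits with and 0.17 in 52 without, and for the YY1 letters 0.22 in 9 with and 0.19 in 59 without. The SP letters ran the other way, with 0.14 in 23 subunits with and 0.20 in 45 without. Besides the Cox6a1 and Uqcr11 windows shown above, only those of Sdhb, Atp5k and Atp5l held both the NRF1 and the ETS letters. These are descriptions of letters in a window, not of bound sites.

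Respiratory chain transcripts lay modestly higher in Ts1Cje cells, with medians above 0 in both genomes and in the nuclear subunits of each of the 5 complexes. A pair of tissue-restricted members of complex IV was far lower, at 22 counts or fewer in every Ts1Cje library. Of the 103 members, 38 rose and 4 fell in Ts1Cje cells at an edgeR adjusted p below 0.05, and 61 did not pass. Over all 17315 genes tested, 23.3% rose and 20.5% fell by the same rule. On counts scaled to library size (CPM), every Ts1Cje library lay above every wild-type library in 55 members. In 6 members every one lay below, where the same held for 28.8% and 26.4% of all genes. On the length-scaled level TPM some of these separations did not hold. Sdha, lower on CPM, had 192 TPM in Ts1Cje replicate 2 and 190 TPM in wild-type replicate 3. Ndufa1, higher on CPM, had 144 TPM in Ts1Cje replicate 3 and 146 TPM in wild-type replicate 1. The median log2 fold change of the members was 0.19, while that of all genes tested was −0.01. The members that rose did so by 1.14-fold to 2.23-fold, and of the 61 that did not pass, 49 had a 95% interval that lay wholly within 0.5 of 0 on the log2 scale. With all libraries kept, the number that rose was 31 in DESeq2, 32 with upper-quartile factors and 46 in both limma fits on TPM. Without wild-type replicate 1 the number that rose was 36, without wild-type replicate 2 it was 23, and without wild-type replicate 3 the number that fell was 2. The 4 members that fell were in complexes I and IV, also by DESeq2 and limma-voom, and among the nuclear subunits of complexes II, III and V none was lower at an unadjusted edgeR p below 0.05.

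**Figure D1:**
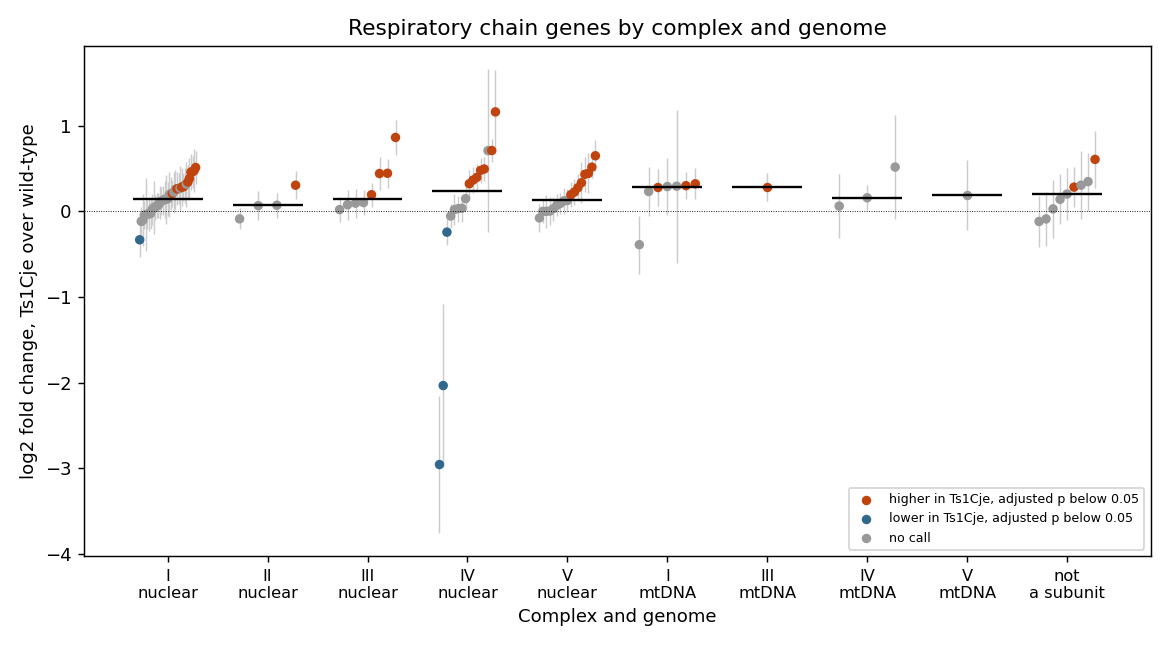
Log2 fold change of each of the 103 members, Ts1Cje over wild-type, with its 95% interval, grouped by complex and genome (mtDNA, the mitochondrial genome), with the median of each group as a black line. The group medians all lie above 0, and Cox4i2 and Ndufa4l2 in complex IV lie far below the rest.

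Summed over the 82 nuclear subunits, the length-scaled level TPM came to 15731, 15443 and 15661 in the Ts1Cje libraries, against 13816, 13125 and 13281 in the wild-type libraries. Each Ts1Cje sum lay above each wild-type sum, and the ratio of the means was 1.16. The 12 mitochondrial genes summed to 51564, 45572 and 44885 TPM in the Ts1Cje libraries, against 42393, 41134 and 37005 TPM in the wild-type libraries, a ratio of 1.18. Counts of these mitochondrial genes made up 2.013%, 1.770% and 1.778% of each Ts1Cje library and 1.623%, 1.603% and 1.491% of each wild-type library. Mitochondrial over nuclear summed TPM was 3.03 ± 0.22 in Ts1Cje and 3.00 ± 0.18 in wild-type libraries (SD, n = 3 each), a difference smaller than the spread between libraries. By complex, the ratio of the mean summed TPM of nuclear subunits, Ts1Cje over wild-type, was 1.11 for complex I, 1.10 for complex II, 1.20 for complex III, 1.25 for complex IV and 1.13 for complex V.

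**Figure D2:**
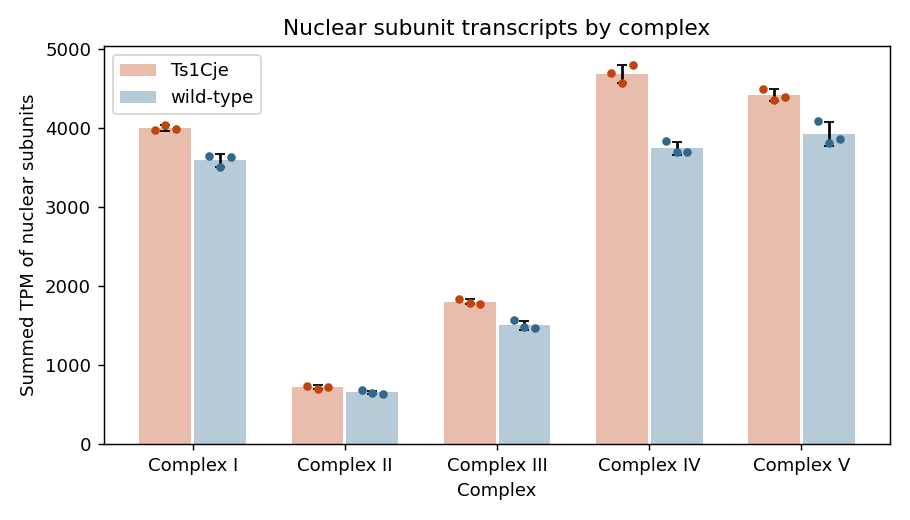
Summed TPM of the nuclear subunits of each complex, with bars for the mean, error bars for the SD (n = 3) and points for the libraries, Ts1Cje left of wild-type. In every complex the 3 Ts1Cje libraries lie above the 3 wild-type libraries, and the widest gap is in complex IV (4681 ± 114 against 3739 ± 81.6 TPM).

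The libraries carried markers of several cell types, which is relevant to all values below. Pluripotency markers summed to 1162 to 1844 TPM in Ts1Cje and 174 to 556 TPM in wild-type libraries, with 7 of 10 higher, and endoderm markers to 926 to 1089 TPM in Ts1Cje and 236 to 291 TPM in wild-type libraries, with 10 of 10 higher. Lateral mesoderm and vessel markers summed to 79.1 to 201 TPM in Ts1Cje and 1675 to 2225 TPM in wild-type libraries, with 10 of 10 lower. Of 10 macrophage progenitor markers, 4 could be tested and 3 rose (Kit, Cd68 and Runx1, which itself lies in the triplicated piece), their sum was 99.97 to 102 TPM in Ts1Cje and 44.5 to 46.3 TPM in wild-type libraries, and Ptprc and Cx3cr1, defining surface markers of the macrophage lineage, had no counts in any library. Erythroid markers summed to 8.95 to 14.1 TPM in Ts1Cje and 8.05 to 11.5 TPM in wild-type libraries, fibroblast and feeder markers to 5.41 to 6.79 TPM and 10.5 to 26.2 TPM, and muscle markers to 18.6 to 39.6 TPM and 42.5 to 73.6 TPM. In bulk RNA fewer cells of a type and less RNA per cell cannot be told apart, and the part of these markers in the respiratory chain values was not tested.

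The mitochondrial genome encodes 7 subunits of complex I, cytochrome b of complex III, 3 subunits of complex IV and 2 of complex V. Of the 12 genes measured, 4 rose in Ts1Cje cells (mt-Nd4, mt-Nd5, mt-Nd6 and mt-Cytb), none fell and 8 did not pass, and the median log2 fold change was 0.28. Before adjustment, 1 of the 12, mt-Nd3, was lower at a p below 0.05. DESeq2 likewise called 4 higher and none lower. Without wild-type replicate 2 the number that rose was 2, and without Ts1Cje replicate 1, whose levels were the highest in most of these genes, the median was 0.14. Without a filter on low counts edgeR called 7 higher and 1 lower. Some of the 12 genes have nuclear copies in a stretch of chromosome 1, described below. In the main fit, 3 of the 5 genes with no annotated copy there rose (median log2 fold change 0.29). Of the 2 copied in part 1 rose (median 0.22), and of the 5 copied whole 0 rose (median 0.19).

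Genes with no annotated copy in the chromosome 1 stretch described below had 2375 TPM or more in every library, mt-Atp8 excepted. mt-Nd5, a proton-pumping subunit of complex I, had 4333, 4150.4 and 3847 TPM in the Ts1Cje libraries, against 3513, 3458 and 3011 TPM in the wild-type libraries. The 3 Ts1Cje libraries lay above the 3 wild-type libraries, with a log2 fold change of 0.30 (SE 0.07, edgeR adjusted p = 0.00572). mt-Cytb, the haem-bearing core of complex III, had 8675, 7781 and 7319.8 TPM in the Ts1Cje libraries, against 6974, 6453 and 6066 TPM in the wild-type libraries. Again the groups did not overlap (log2 fold change 0.28, SE 0.07, edgeR adjusted p = 0.0118), though without wild-type replicate 2 the adjusted p was 0.0518. mt-Nd6, the subunit encoded on the opposite strand, had 4378, 4099 and 3661 TPM in the Ts1Cje libraries, against 3364, 3431 and 2884 TPM in the wild-type libraries. Its groups did not overlap either (log2 fold change 0.32, SE 0.08, edgeR adjusted p = 0.00983). The strand setting of the counting is not given in the sources at hand, so mt-Nd6 reads and antisense reads of the same stretch cannot be told apart.

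mt-Nd1 averaged 8028 ± 1061 TPM in Ts1Cje and 6825 ± 1043 TPM in wild-type libraries (SD, n = 3 each, as in all such pairs below), and mt-Nd2 averaged 3685 ± 481 TPM and 3010.3 ± 551 TPM. The libraries of the 2 groups overlapped in both genes, whose log2 fold changes were 0.23 (edgeR adjusted p = 0.167) and 0.29 (edgeR adjusted p = 0.143). mt-Nd4 averaged 2604 ± 276 TPM in Ts1Cje and 2142 ± 247 TPM in wild-type libraries (log2 fold change 0.28, SE 0.09, edgeR adjusted p = 0.0389), and this call was lost without Ts1Cje replicate 1, wild-type replicate 2 or wild-type replicate 3, with adjusted p of 0.122, 0.0835 and 0.122. The most abundant transcript, mt-Co1, which encodes the oxygen-reducing subunit of complex IV, had 17490.5, 15482 and 16932 TPM in the Ts1Cje libraries, against 14721, 15003 and 14809 TPM in the wild-type libraries. All Ts1Cje libraries lay above all wild-type libraries, but the log2 fold change of 0.16 did not pass (SE 0.06, edgeR adjusted p = 0.0732), and it did without Ts1Cje replicate 2 (0.22, adjusted p = 0.0253), in limma-voom, in both limma fits on TPM and with no filter on low counts (adjusted p from 0.0171 to 0.0422).

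The other 5 mitochondrial genes were listed at far lower levels, and each has a near-complete copy in the nuclear genome. On mm10 a stretch of chromosome 1 (chr1:24611535-24616197) holds 7 annotated copies of mitochondrial genes. Over 98.99% to 99.87% of their length, mt-Atp6, mt-Co2, mt-Co3 and mt-Nd4l were 100% identical to the copies Gm10925, Gm28661, Gm28437 and Gm10222, and mt-Nd3 differed from Gm28438 by 1 base. The opening 60 bases of mt-Nd3 and its copy show how little separates them, with the capital marking the substitution T3C, counted from the gene's first base with the mitochondrial base first.
mt-Nd3: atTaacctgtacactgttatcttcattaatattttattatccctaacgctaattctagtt
Gm28438: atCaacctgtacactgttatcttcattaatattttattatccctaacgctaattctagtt

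The 5 genes copied whole had means of 17.7 to 119 TPM in Ts1Cje and 14.5 to 155 TPM in wild-type libraries. The 5 measured genes with no annotated copy in that stretch had means of 3685 to 8028 TPM in Ts1Cje and 3010 to 6825 TPM in wild-type libraries. The 2 genes copied in part were mt-Nd4, with 63.6% of its length at 100% identity to Gm28439, and mt-Co1, with 31.8% at 98.8% identity to Gm29216. The 7 copies together held 1152, 859 and 955 counts in the Ts1Cje libraries and 1015, 1025 and 869 in the wild-type libraries. The counting of reads that align equally well in several places is not given, so the levels and fold changes of the 5 whole-copied genes are uncertain. None of the 5 passed. mt-Nd3 had 129, 101 and 127 TPM in the Ts1Cje libraries, against 151, 177 and 137 TPM in the wild-type libraries, which made it the only mitochondrial gene tested with every Ts1Cje library below every wild-type library (log2 fold change −0.39, SE 0.15, edgeR adjusted p = 0.0617). mt-Co2 had 145, 74.99 and 77.6 TPM in the Ts1Cje libraries, against 77.4, 71.1 and 59.6 TPM in the wild-type libraries, where Ts1Cje replicate 1 stood apart and the groups overlapped (log2 fold change 0.52, edgeR adjusted p = 0.152). The log2 fold changes of mt-Nd4l, mt-Atp6 and mt-Co3 were 0.29, 0.19 and 0.06, with edgeR adjusted p of 0.588, 0.433 and 0.795. mt-Atp8, which overlaps mt-Atp6, had 1, 4 and 1 counts in the Ts1Cje libraries and 0, 2 and 0 in the wild-type libraries and was not tested. In the mitochondrial genome it lies after mt-Co2, and mt-Co2 and mt-Atp6 are both copied whole on chromosome 1. A copy of mt-Atp8 there was not searched for outside the annotated rows.

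**Figure D3:**
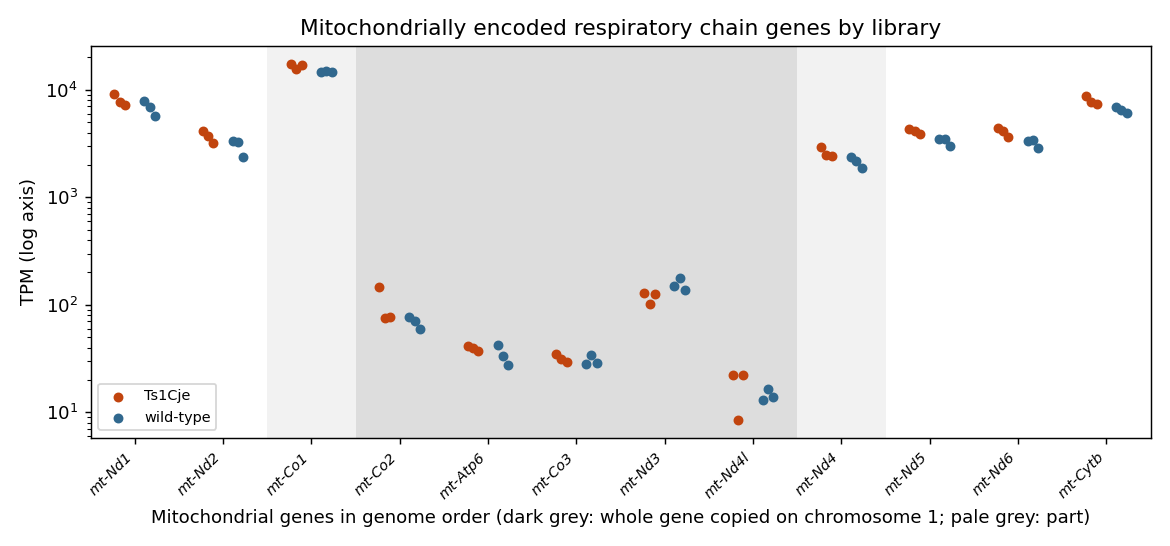
TPM of the 12 mitochondrial genes in each library on a log axis, in genome order, Ts1Cje left of wild-type, with genes copied whole on chromosome 1 on dark grey and those copied in part on pale grey. The genes on dark grey lie between 8.54 and 177 TPM and the others between 1872 and 17490.5 TPM, a far wider gap than that between genotypes in any gene.

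Complex I is built from an N module that oxidises NADH, a Q module that reduces ubiquinone and a membrane arm, the P module, that pumps protons. Of its 37 nuclear subunits, 12 rose, 1 fell and 24 did not pass, with a median log2 fold change of 0.15. The membrane arm had 8 of 20 higher and 1 lower (median 0.22), the N module 2 of 8 higher (median 0.03) and the Q module 1 of 8 higher (median 0.13), and the remaining call was Ndufab1, the acyl carrier protein (0.26). Over all genes 23.3% rose and 20.5% fell, so the share of higher calls in the N module was near that background and that in the Q module below it, and the difference between the modules was not tested.

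Ndufa11, a membrane-arm subunit, had 138, 151 and 137 TPM in the Ts1Cje libraries, against 97.1, 95.4 and 105 TPM in the wild-type libraries. Its groups did not overlap, and its log2 fold change of 0.51 was the largest in complex I (SE 0.09, edgeR adjusted p = 0.00117). Ndufb1-ps, which is listed as protein-coding and belongs to the same arm, had 88.3, 75.1 and 88.7 TPM in the Ts1Cje libraries, against 62.9, 63.5 and 54.6 TPM in the wild-type libraries (log2 fold change 0.47, SE 0.11, edgeR adjusted p = 0.0066). Ndufb4, another small membrane-arm subunit, had 62.8, 67.7 and 63.02 TPM in the Ts1Cje libraries, against 47.9, 45.8 and 46.04 TPM in the wild-type libraries (log2 fold change 0.46, SE 0.08, edgeR adjusted p = 0.00166). In both, every Ts1Cje library lay above every wild-type library. Ndufb4 lies on chromosome 16 but outside the triplicated piece, and genes within 1 Mb of it had a median log2 fold change of 0.01. Ndufs8, an iron-sulphur subunit of the Q module, averaged 108 ± 9.6 TPM in Ts1Cje and 78.4 ± 4.2 TPM in wild-type libraries (log2 fold change 0.46, edgeR adjusted p = 0.00335).

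Ndufb11, an X-linked membrane-arm subunit, was the exception in complex I. It had 155, 187 and 184 TPM in the Ts1Cje libraries, against 213, 219 and 226 TPM in the wild-type libraries. Each Ts1Cje library lay below each wild-type library (log2 fold change −0.33, SE 0.09, edgeR adjusted p = 0.013), and without wild-type replicate 3 the adjusted p was 0.0513. Ndufs1, the largest iron-sulphur subunit of the N module, and Ndufv3, an accessory subunit of that module, had the next lowest values, with log2 fold changes of −0.12 (edgeR adjusted p = 0.239) and −0.11 (edgeR adjusted p = 0.564). In Ndufv3 wild-type replicate 1 had 32.8 TPM, below all Ts1Cje libraries, and the other wild-type libraries had 47.5 and 43.2 TPM. Without wild-type replicate 1 its log2 fold change was −0.26 (edgeR adjusted p = 0.0376). The other 7 calls of complex I were Ndufb9, Ndufb10, Ndufs6, Ndufb7, Ndufc1, Ndufs4 and Ndufa13, with log2 fold changes between 0.21 and 0.38. Those 7, Ndufab1 and Ndufb11 each lost the call in at least 1 fit without a library, 9 of the 13 calls in all, with adjusted p from 0.0502 to 0.16.

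Complex II, the succinate dehydrogenase of the citric acid cycle, is the only complex with no mitochondrially encoded subunit. Its catalytic subunits, Sdha with the flavin and Sdhb with the iron-sulphur clusters, showed no call (log2 fold changes −0.09 and 0.07, edgeR adjusted p = 0.231 and 0.519), and neither did the membrane anchor Sdhc (0.07, edgeR adjusted p = 0.408). Sdhd, the other anchor, had 361, 313 and 349 TPM in the Ts1Cje libraries, against 289, 271 and 266 TPM in the wild-type libraries. Its groups did not overlap (log2 fold change 0.30, SE 0.07, edgeR adjusted p = 0.00793). Sdha averaged 186 ± 6.4 TPM in Ts1Cje and 197 ± 7.8 TPM in wild-type libraries. The median over the 4 genes was 0.07.

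In complex III, 4 of 8 nuclear subunits rose and none fell, with a median log2 fold change of 0.15. Of the 5 small supernumerary subunits 3 rose, and the remaining call was the core protein Uqcrc1. Uqcrq, a small subunit beside cytochrome b, had 133, 125 and 126 TPM in the Ts1Cje libraries, against 80.1, 64.4 and 66.3 TPM in the wild-type libraries. The lowest Ts1Cje library stood well above the highest wild-type library, and the log2 fold change of 0.86 was the second highest among the nuclear subunits of all complexes (SE 0.09, edgeR adjusted p = 6.28e-05). Genes within 1 Mb of Uqcrq on chromosome 11 had a median of −0.38. Uqcr11, whose promoter is shown above, had 290.3, 306 and 299 TPM in the Ts1Cje libraries, against 215, 219 and 221 TPM in the wild-type libraries (log2 fold change 0.44, SE 0.07, edgeR adjusted p = 0.000991). Uqcr10, another small supernumerary subunit, had 338, 344 and 328 TPM in the Ts1Cje libraries, against 281, 232 and 228 TPM in the wild-type libraries (log2 fold change 0.44, SE 0.09, edgeR adjusted p = 0.00276). The groups overlapped in neither gene. Genes within 1 Mb had a median log2 fold change of 0.15 for Uqcr11 and 0.33 for Uqcr10, and the part of these shifts was not tested.

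The core protein Uqcrc2, the Rieske protein and the small supernumerary subunit Uqcrb of complex III moved little. Uqcrfs1, the Rieske iron-sulphur protein, averaged 259.9 ± 16.6 TPM in Ts1Cje and 242 ± 16.4 TPM in wild-type libraries (log2 fold change 0.09, 95% interval −0.08 to 0.27). Uqcrc2 and Uqcrb had log2 fold changes of 0.02 and 0.08, with 95% intervals of −0.13 to 0.17 and −0.10 to 0.25, and under upper-quartile scaling Uqcrc2 was at −0.01. Uqcrc1, the other core protein, rose by 0.19 on the log2 scale (edgeR adjusted p = 0.0285), and this call was lost without Ts1Cje replicate 1 or 3 or wild-type replicate 1 or 2, with adjusted p from 0.0641 to 0.111.

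Complex IV, cytochrome c oxidase, showed both the largest rise and the largest falls. Of its 16 nuclear members 7 rose, 3 fell and 6 did not pass, with a median log2 fold change of 0.23. Among the 11 common forms of its supernumerary subunits 6 rose and none fell (median 0.32), while among the 4 tissue-restricted forms 1 rose and 2 fell. Cox4i1, the common form of the subunit through which ATP regulates the enzyme, had 714, 737 and 768 TPM in the Ts1Cje libraries, against 451, 443 and 456 TPM in the wild-type libraries. The groups were far apart relative to their spread (log2 fold change 0.71, SE 0.06, edgeR adjusted p = 1.24e-05). Genes within 1 Mb of Cox4i1 on distal chromosome 8 had a median log2 fold change of 0.40, and the part of that shift in its value was not tested.

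Cox4i2 is the alternative form of the same subunit, known from lung and vessel wall and for oxygen sensing. It had 2.66, 5.45 and 2.79 TPM in the Ts1Cje libraries, against 18.7, 35.6 and 29.02 TPM in the wild-type libraries. All Ts1Cje libraries lay below all wild-type libraries, and the log2 fold change of −2.95 was the lowest of all members (SE 0.36, edgeR adjusted p = 0.000134). Cox4i2 thus made up 0.372%, 0.733% and 0.362% of Cox4 transcripts in the Ts1Cje libraries, against 3.98%, 7.44% and 5.98% in the wild-type libraries. Ndufa4l2, a relative of the complex IV subunit Ndufa4 known as a hypoxia-induced gene, had 1.28, 2.85 and 1.24 TPM in the Ts1Cje libraries, against 4.87, 9.07 and 7.69 TPM in the wild-type libraries. Its counts were low, at 8, 16 and 8 in the Ts1Cje libraries and 30, 57 and 49 in the wild-type libraries. It met the limit of 10 counts in 3 libraries only with the wild-type libraries, so its call rests on a gene kept for its wild-type level. It too lay lower in every Ts1Cje library (log2 fold change −2.03, SE 0.42, edgeR adjusted p = 0.00342), while Ndufa4 itself averaged 243 ± 10.3 TPM in Ts1Cje and 252 ± 8.1 TPM in wild-type libraries (log2 fold change −0.06, 95% interval −0.20 to 0.08). Both genes were lowest among wild-type libraries in replicate 1. The lateral mesoderm and vessel markers ran the same way, at 79.1 to 201 TPM in Ts1Cje and 1675 to 2225 TPM in wild-type libraries, and their part in the fall of Cox4i2 and Ndufa4l2 was not tested.

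Cox6b2, the form of Cox6b known from testis, went the other way. It had 66.1, 79.4 and 109 TPM in the Ts1Cje libraries, against 30.1, 39.01 and 44.1 TPM in the wild-type libraries. The groups did not overlap (log2 fold change 1.16, SE 0.21, edgeR adjusted p = 0.0023), and Cox6b2 made up 14.4% ± 3.0 of Cox6b transcripts in Ts1Cje and 7.75% ± 1.43 in wild-type libraries (SD, n = 3 each). Its common partner Cox6b1 averaged 499.6 ± 9.7 TPM in Ts1Cje and 449 ± 5.98 TPM in wild-type libraries, with no overlap of the groups but no call (log2 fold change 0.15, edgeR adjusted p = 0.0723). Cox7a1, the heart and muscle form of Cox7a, had 13.7, 8.75 and 14.9 TPM in the Ts1Cje libraries, against 10.96, 8.79 and 3.21 TPM in the wild-type libraries, with overlapping groups and no call (log2 fold change 0.71, SE 0.43, edgeR adjusted p = 0.21). Its partner Cox7a2 was at 0.02 (95% interval −0.16 to 0.20). The muscle and germline forms below the count limit were near 0 in both genotypes, with at most 5 counts in any library for Cox6a2 and Cox8b, 2 counts in each Ts1Cje library and 0 in each wild-type library for Cox7b2, and none for Cox8c.

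**Figure D4:**
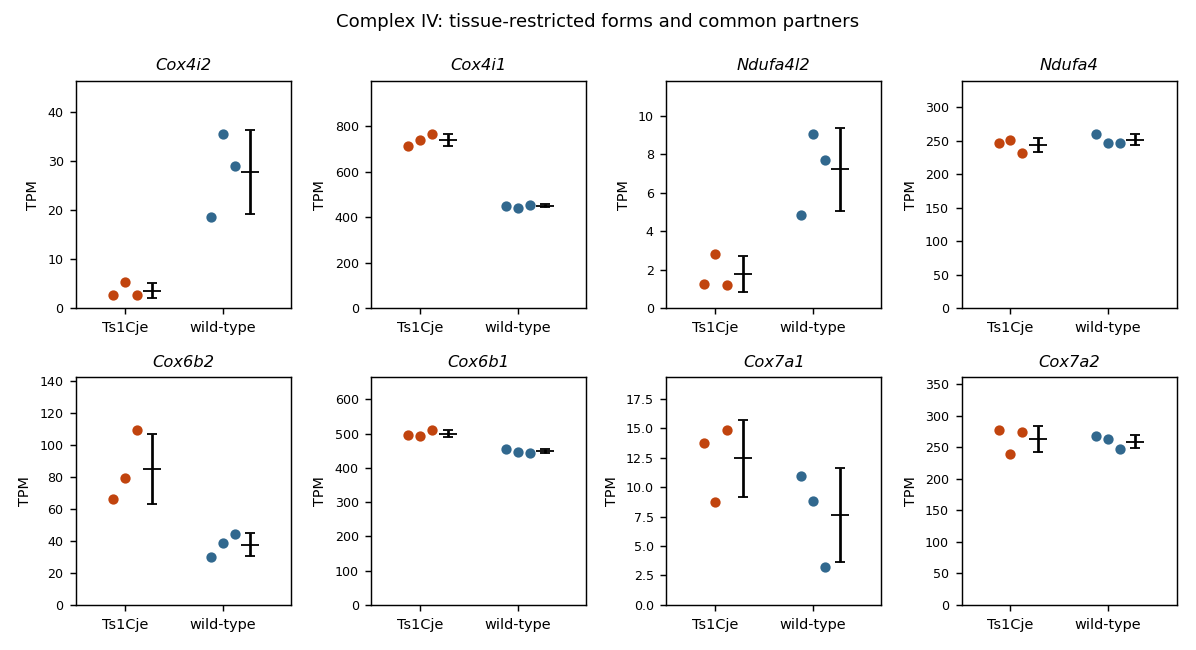
TPM of the tissue-restricted forms of complex IV subunits and of their common partners in each library, Ts1Cje left of wild-type, with the mean and SD (n = 3) beside the points. Cox4i2 and Ndufa4l2 are lower and Cox6b2 and Cox4i1 higher in all 3 Ts1Cje libraries, and the groups overlap in Ndufa4, Cox7a1 and Cox7a2.

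The other common forms that rose were Cox6a1, whose promoter is shown above, Cox8a, Cox5a, Cox5b and Cox7c. Cox6a1 had 484, 501 and 509 TPM in the Ts1Cje libraries, against 363, 347 and 346 TPM in the wild-type libraries (log2 fold change 0.49, edgeR adjusted p = 0.00016). Cox8a, the most abundant nuclear subunit transcript in Ts1Cje cells per unit length, averaged 1087 ± 43.5 TPM in Ts1Cje and 778 ± 55.4 TPM in wild-type libraries (log2 fold change 0.48, edgeR adjusted p = 0.00032). Genes within 1 Mb of Cox8a had a median log2 fold change of 0.38, and the part of that shift in its value was not tested. Cox5a and Cox5b, which sit on the matrix side of the enzyme, had log2 fold changes of 0.39 and 0.36, and Cox7c had 0.32. Cox6c and Cox7b were at 0.04 and 0.03, with edgeR adjusted p of 0.71 and 0.742. Cox7a2l, which joins complexes III and IV into supercomplexes, had 224, 221 and 211 TPM in the Ts1Cje libraries, against 248, 260.3 and 264 TPM in the wild-type libraries. It was lower in all 3 Ts1Cje libraries (log2 fold change −0.24, SE 0.07, edgeR adjusted p = 0.0147), and the call was lost without Ts1Cje replicate 3, wild-type replicate 2 or wild-type replicate 3, with adjusted p of 0.0587, 0.0559 and 0.0623.

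In complex V, 8 of 17 nuclear subunits rose, none fell and 9 did not pass, with a median log2 fold change of 0.13. Atp5o encodes OSCP, the subunit that ties the F1 head to the peripheral stalk, and is the only respiratory chain member in the triplicated piece (chr16:91925214-91931687, minus strand, mm10). It had 1144, 954 and 1168 counts in the Ts1Cje libraries, against 670, 727 and 726 counts in the wild-type libraries. On the length-scaled level this was 101, 94.4 and 100.2 TPM in the Ts1Cje libraries, against 60.4, 64.2 and 63.3 TPM in the wild-type libraries. The groups did not overlap, and the log2 fold change was 0.65 (SE 0.08, edgeR adjusted p = 0.000179), a fold of 1.57 with a 95% interval of 1.38 to 1.78. The distance from the 1.5-fold that 3 copies against 2 would give was 0.06 on the log2 scale and did not pass (edgeR adjusted p = 0.503). The 33 tested genes within 1 Mb of Atp5o had a median log2 fold change of 0.67. Reads on the short overlap with the read-through gene, 0 counts for which are listed, cannot be assigned with certainty.

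The 3 partners of OSCP in the peripheral stalk showed no call. Atp5j, which encodes F6 and also lies on chromosome 16 but outside the triplicated piece, had 108, 105 and 109 TPM in the Ts1Cje libraries, against 110, 105 and 105 TPM in the wild-type libraries. These ranges overlapped almost fully (log2 fold change −0.00091, 95% interval −0.14 to 0.14), although genes within 1 Mb of it had a median of 0.46. Atp5pb, the b subunit, averaged 199 ± 2.9 TPM in Ts1Cje and 186 ± 4.7 TPM in wild-type libraries, with no overlap of the groups but no call (log2 fold change 0.09, 95% interval −0.03 to 0.21). Atp5h, the d subunit, averaged 211 ± 3.2 TPM in Ts1Cje and 206 ± 11.3 TPM in wild-type libraries (log2 fold change 0.03, 95% interval −0.11 to 0.17). None of the 3 intervals reached the log2 fold change of Atp5o, and the difference between the genes was not itself tested.

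**Figure D5:**
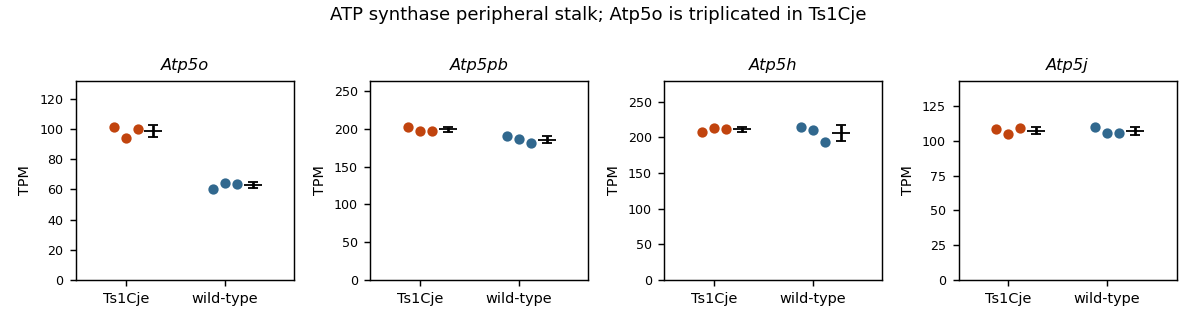
TPM of the 4 peripheral stalk subunits of ATP synthase in each library, Ts1Cje left of wild-type, with the mean and SD (n = 3) beside the points. Atp5o is higher in all 3 Ts1Cje libraries (98.7 ± 3.8 against 62.6 ± 2.0 TPM). The other 3 genes differ less, and among them the groups overlap in Atp5h and Atp5j but not in Atp5pb.

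Outside the stalk, 3 of 5 subunits of the F1 head and central stalk rose, 3 of 5 membrane subunits and 1 of 3 c-ring genes. Atp5d, the delta subunit of the central stalk, had 304, 298 and 307 TPM in the Ts1Cje libraries, against 211, 209 and 212 TPM in the wild-type libraries. The spread within each group was small and the groups were far apart (log2 fold change 0.52, SE 0.06, edgeR adjusted p = 9.17e-05). Atp5k, the e subunit at the dimer interface, had 198, 207 and 209 TPM in the Ts1Cje libraries, against 144, 138 and 167 TPM in the wild-type libraries (log2 fold change 0.44, SE 0.10, edgeR adjusted p = 0.00667). The c-ring genes encode the same mature protein from 3 loci, and the difference between them was not tested. Atp5g1 averaged 36.4 ± 1.8 TPM in Ts1Cje and 26.8 ± 2.04 TPM in wild-type libraries and rose (log2 fold change 0.43, edgeR adjusted p = 0.00353), while the more abundant Atp5g2 averaged 244 ± 4.9 TPM and 256 ± 18.1 TPM (−0.08, edgeR adjusted p = 0.419) and Atp5g3 averaged 351 ± 6.01 TPM and 322 ± 28.1 TPM (0.12, edgeR adjusted p = 0.183).

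The catalytic beta subunit Atp5b and its partner alpha, Atp5a1, were the most abundant nuclear subunits in wild-type cells. Atp5b averaged 958 ± 40.4 TPM in Ts1Cje and 834 ± 63.3 TPM in wild-type libraries (log2 fold change 0.19, edgeR adjusted p = 0.0358), and Atp5a1 averaged 925 ± 36.1 TPM and 844 ± 48.3 TPM (0.13, edgeR adjusted p = 0.126). Atp5mpl, a small membrane-associated protein of the enzyme, was at 0.00 (95% interval −0.19 to 0.19). The remaining calls were Atp5l, Atp5e and Atp5j2, at 0.33, 0.27 and 0.22. Those 3 and Atp5b each lost the call in at least 1 fit without a library, with adjusted p from 0.0513 to 0.165, wild-type replicate 2 being common to all 4.

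Among the rows that are not subunits, Ndufaf3, a complex I assembly factor, had 24, 22.1 and 25.1 TPM in the Ts1Cje libraries, against 15.4, 14.02 and 17.1 TPM in the wild-type libraries (log2 fold change 0.61, SE 0.15, edgeR adjusted p = 0.00807), with no overlap of the groups. Ndufaf7, another assembly factor of complex I, was just past the threshold (0.28, edgeR adjusted p = 0.0486), and the call was lost whenever any single library was left out (adjusted p 0.0747 to 0.136). The other 6 assembly factors and Cox5b-ps did not pass.

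The 82 nuclear subunits lie on 19 chromosomes, and genes around them differed in their own shifts. Across the 82, the subunit's log2 fold change and the median of the genes within 1 Mb had a Spearman correlation of 0.13, a description over genes that share the same 6 libraries. For the 32 subunits that rose the median of these neighbourhood values was 0.06, and for the 46 with no call it was −0.02.

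Genes that assemble or serve the chain were taken from other lists, whose background shares of calls are the same 23.3% higher and 20.5% lower. Of 47 tested assembly factors of all complexes, 8 of which are members here, 7 rose and 2 fell (median log2 fold change 0.03). Coa6, a copper-handling factor of complex IV, averaged 65.6 ± 7.3 TPM in Ts1Cje and 35.3 ± 7.7 TPM in wild-type libraries (0.89, edgeR adjusted p = 0.00222), and Surf1, another assembly factor of complex IV, averaged 57.3 ± 3.4 TPM and 41.6 ± 3.5 TPM (0.45, edgeR adjusted p = 0.00786). Cox20, which chaperones the mitochondrially encoded Cox2 protein, fell (−0.36, edgeR adjusted p = 0.0113). Of 16 genes for cytochrome c, cytochrome c1 and ubiquinone synthesis, 3 rose and 1 fell (median 0.09). Cyc1, the cytochrome c1 of complex III, which the naming rule does not reach, averaged 244 ± 14.1 TPM in Ts1Cje and 192 ± 11.98 TPM in wild-type libraries (0.34, edgeR adjusted p = 0.00299). Coq10b, a ubiquinone-binding protein, and Coq8b, a kinase-like protein of ubiquinone synthesis, rose by 0.88 and 0.41, and Coq9 fell (−0.36, edgeR adjusted p = 0.0318).

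Of 24 genes of the citric acid cycle and pyruvate entry, 5 rose and 3 fell (median 0.04). Pdk1 and Pdk3, kinases that switch off pyruvate dehydrogenase, had the largest changes. Pdk1 averaged 9.50 ± 0.34 TPM in Ts1Cje and 21.5 ± 5.7 TPM in wild-type libraries (−1.19, edgeR adjusted p = 0.00141), and Pdk3 averaged 27.2 ± 0.96 TPM and 46.9 ± 4.1 TPM (−0.79, edgeR adjusted p = 0.000131). Idh3a, a subunit of isocitrate dehydrogenase, and Mdh2, malate dehydrogenase, rose by 0.47 and 0.43. Of 20 genes used as measures of mitochondrial mass, 6 rose and 3 fell (median 0.03), with Tomm20 of the import receptor at 0.49, the phosphate carrier Slc25a3 at 0.35, the fusion protein Mfn2 at −0.40 and the import motor subunit Timm44 at −0.33.

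Of 29 tested genes that copy and transcribe mitochondrial DNA and process its RNA, 1 rose and 6 fell, with a median log2 fold change of −0.10. The share that fell was close to the 20.5% over all genes, and the share that rose lay below the 23.3%. Top1mt, the mitochondrial topoisomerase, averaged 21.5 ± 1.9 TPM in Ts1Cje and 10.4 ± 1.5 TPM in wild-type libraries (1.04, edgeR adjusted p = 0.00068). Trmt10c and Hsd17b10, which are subunits of mitochondrial RNase P, fell by 0.52 and 0.51 on the log2 scale (edgeR adjusted p = 0.00138 and 0.000897), and Mterf3, a repressor of mitochondrial transcription, fell by 0.44 (edgeR adjusted p = 0.00479). Tfam, the factor that packs and transcribes mitochondrial DNA, averaged 57.7 ± 3.4 TPM in Ts1Cje and 73.5 ± 4.9 TPM in wild-type libraries (−0.36, edgeR adjusted p = 0.00327). The mitochondrial RNA polymerase Polrmt did not pass (−0.10, edgeR adjusted p = 0.523). Tfam and Polrmt were chosen for their role, outside the rule for named genes.

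Of 18 tested regulators of respiratory genes, 6 rose and 4 fell (median 0.05). Myc averaged 55.9 ± 5.7 TPM in Ts1Cje and 189.7 ± 40.1 TPM in wild-type libraries (−1.78, edgeR adjusted p = 0.000207). Foxo1 and Tfe3, transcription factors of nutrient response, rose by 1.75 and 0.87. Esrra, the nuclear receptor known to drive respiratory genes together with PGC-1 coactivators, averaged 31.1 ± 0.76 TPM in Ts1Cje and 18.6 ± 1.9 TPM in wild-type libraries (0.73, edgeR adjusted p = 0.000207). Of the factors whose promoter letters were counted above, those in this list did not pass, with Nrf1 at −0.12, Gabpa at −0.18 and Yy1 at −0.07 (edgeR adjusted p = 0.186, 0.0838 and 0.544), and were likewise named for their role.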

How the data were processed

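Poly(A)-selected RNA of 3 Ts1Cje and 3 wild-type samples was analysed from 2 tables of the authors, the first with raw counts and the other with TPM for each Ensembl gene. The submitters' processing notes list featureCounts 1.6.3, HISAT2 2.1.0, Trimmomatic 0.38 and FastQC 0.11.7, and the genome mm10. Neither the strand setting nor the counting of multi-mapped reads is stated there, so overlapping genes and near-identical copies are uncertain. For 12037 genes with at least 50 counts in every library, the ratio of deposited count to deposited TPM, scaled per library, was the same in every library within 0.001 in 100% of values.

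Counts were tested in R 4.3.3 with edgeR 4.0.16 (filterByExpr with minimum count 10 and minimum total 15, TMM, robust quasi-likelihood test without covariates, Benjamini-Hochberg adjustment over 17315 genes, threshold 0.05). The procedure was also run on simulated data with the same dispersion for every gene and few changed genes. That setting is milder than these data, so the run says little on error rates here. Fold changes are Ts1Cje over wild-type, the SE was derived from the fold change and the F statistic, and intervals are 95%. DESeq2 1.42.0, limma 3.58.1, other scalings, filters and pseudocounts, a replicate block and leaving out each library were the alternatives. Neighbourhood values are medians over the other tested genes within 1 Mb on the same chromosome. Figures used matplotlib 3.10.9.

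The members, gene lists and tests were chosen with earlier results of these data known. Genes named in full are Atp5o, all mitochondrial genes, the 3 nuclear members with the largest and the 3 with the smallest log2 fold change per complex, members past the threshold by at least 0.5, tissue-restricted forms with their partners, and the 4 largest called changes of each other list. Other calls are named to complete the counts. The 16 rows named as pseudogenes of members, which the rule leaves out, held 0.106% of the members' counts. Mitochondrial genes were aligned to the annotated chromosome 1 copies with their GENCODE M21 transcripts. Copies elsewhere in the nuclear genome and short matches were not searched for. Replicate pairs within a genotype differed by more than sampling noise, with chi-square over degrees of freedom of 4.81 to 18.4. Counting error alone is small for members with many counts. It is not small for those with few, such as Ndufa4l2 with 8, 16 and 8 counts and Cox4i2 with 12, 22 and 13 counts in the Ts1Cje libraries. Reads carry no molecular identifiers.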

Additional observations from a re-analysis of the deposited data

How the results depend on the processing

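No call reversed under any alternative run. Of the 38 calls higher in Ts1Cje, 22 held under every other scaling, filter, test and leave-one-out fit and under the replicate block. The lower call of Cox4i2 held under all of them as well. Ndufa4l2 was not tested at a minimum mean log2 CPM of 1, where 3 members were lower, and its call held in the other 16 alternatives. In at least 1 alternative that tested them, 16 higher and 2 lower calls were lost. DESeq2, with all libraries kept, lost the higher calls of Ndufa13, Ndufc1, Ndufs4, Uqcrc1, Atp5b, Atp5j2 and Ndufaf7 (adjusted p from 0.0553 to 0.0932). The mitochondrially encoded genes called higher were 7 with no filter on low counts, and 1 was called lower with no filter, with upper-quartile factors and in both limma fits on log2(TPM + 1) and log2(TPM + 0.1), in each case mt-Nd3. Upper-quartile factors, under which the median of all genes was −0.03, moved the median of nuclear subunits to 0.12 and that of complex II to 0.039. Leaving out each library in turn gave 23 to 36 members higher and 2 to 5 lower, 2 to 5 mitochondrial genes higher and 0 lower, medians of 0.13 to 0.17 for nuclear subunits, 0.14 to 0.32 for mitochondrial genes, 0.13 to 0.19 for complex I, 0.05 to 0.08 for complex II, 0.12 to 0.18 for complex III, 0.20 to 0.27 for complex IV and 0.09 to 0.17 for complex V, Atp5o at 0.60 to 0.69, and its log2 difference from 1.5-fold at 0.02 to 0.10. Fits with 5 libraries have less power by construction. For the other changes the cause was not tested.

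In all, 6 genes with no call changed sign. Uqcrc2 was −0.0092 and Cox7a2 −0.0093 with upper-quartile factors, Atp5j was 0.0085 at a minimum mean log2 CPM of 1 and 0.0058 and 0.0059 in the limma fits on TPM, and Atp5mpl was −0.0082 with DESeq2 size factors, −0.028 with upper-quartile factors, −0.010 in DESeq2, −0.00033 in limma-voom and −0.0029 with no filter. Leaving out each library gave −0.020 to 0.14 for mt-Co3, −0.26 to 0.0025 for Ndufv3, −0.012 to 0.072 for Uqcrc2, −0.016 to 0.027 for Atp5j, −0.035 to 0.054 for Atp5mpl and −0.027 to 0.093 for Cox7a2.

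Samples of the 2 genotypes share lot numbers. Their deviations from the group means correlated at 0.22, 0.059 and 0.20 for lots 1, 2 and 3, which did not meet the limit of 0.1 for every pair, and no pairing was assumed. With the replicate block 41 members were higher and 4 lower, 6 mitochondrial genes were higher and 0 lower (mt-Nd1 and mt-Nd2 passed as well, with adjusted p of 0.00732 and 0.00303), the medians were 0.15 for nuclear subunits, 0.25 for mitochondrial genes, 0.15, 0.07, 0.15, 0.23 and 0.13 for complexes I to V, Atp5o was at 0.65 and its difference from 1.5-fold at 0.06. Every sample correlated best with its own number, a hint from the data and not from the design. The few counts allow no statement on mt-Atp8 or on the muscle and germline forms of complex IV. For mt-Atp8 the cause of the few counts was not tested.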
